A study of Mus musculus with 18 samples.

Results

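The tripartite motif (TRIM) proteins are a large family of ubiquitin ligases, and their transcripts were followed here in macrophages left untreated or given IFN or interleukin-4 (IL4). Members were taken by name, as every gene of the deposited count table whose symbol is Trim followed by a number, with names ending in -ps left out. That rule used no measured value and gave 68 genes of the 21954 in the table. Of the 68, 42 passed the filter on low counts and were tested.

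RNA was sequenced from mouse macrophages grown from bone marrow, of wild type (WT, called control in the titles) or L13a KO genotype. The ribosomal protein L13a is encoded by Rpl13a, and the series title calls the knockout macrophage-specific. Each genotype was left without treatment (libraries 1 to 3), treated with IFN (libraries 4 to 6) or treated with IL4 (libraries 7 to 9), which gave 6 groups of 3 libraries and 18 libraries in all. The labels describe the cytokines only as M1 and M2 cytokines. The kind of interferon, the doses, the times, the age and strain of the mice and the driver of the deletion are not given in the sources used here. The labels do not state that replicate libraries stand for different mice or cultures, so the p-values measure only the spread between these libraries. In each WT group some libraries held Y-linked transcripts and others did not, so its 3 libraries do not all come from the same mice. How far the rest of the spread is technical is not known.

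A typical TRIM protein carries a RING domain that hands ubiquitin to a target, followed by B-box domains and a coiled coil, and it ends in a domain that chooses the target. Many members act in innate immunity. Trim25 ubiquitinates the RNA sensor RIG-I, Trim21 binds antibody-coated virus inside the cell, and primate TRIM5 blocks incoming retroviral capsids. Others work outside immunity, such as Trim28, a corepressor that silences retroelements together with zinc finger proteins.

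Total expected counts ranged from 18098711 to 28477342 per library, so that 3 counts, the limit allowed by a count of 0, correspond to 0.0963 to 0.181 counts per 1000000 counts of the library (CPM). All 9 macrophage markers were detected in every group. Their summed level was 18800 to 20880 CPM in untreated WT and 7679 to 10290 CPM in untreated L13a KO. One of the 9, the lysozyme gene Lyz2, was called lower in L13a KO in all 3 treatments, with 11200 ± 801 CPM in untreated WT against 4.37 ± 2.19 CPM (SD, n = 3; log2 fold change of -11.34, adjusted p = 8.65e-08, edgeR). Lyz2 made up most of the untreated WT sum and almost none of the L13a KO sum. The other 8 markers were not called between genotypes in any treatment. Rpl13a itself was lower on average in the L13a KO libraries, at 156 to 606 CPM against 437 to 866 CPM in WT, but no comparison of the genotypes called it (log2 fold change of -1.47 in untreated cells, adjusted p = 0.256, edgeR). Untreated and IFN-treated libraries did not overlap between genotypes for Rpl13a, and IL4-treated ones did. Y-linked transcripts were present in 5 of the 9 WT libraries and in 0 of the 9 L13a KO libraries, and the counts of members called after IFN below were the same with this as a covariate. After IL4 in WT the covariate added a call of Trim16, as described below. WT untreated libraries 2 and 3 were far closer to each other than any other replicate pair, with a chi-square of 6.09 per degree of freedom against 53.9 to 194. Both lacked Y-linked transcripts. They still differed by more than sampling noise and were kept as separate libraries, but the labels do not say whether they share a source. With only 1 of the pair kept, the members called after IFN in WT numbered 11 (without library 2) or 12 (without library 3) in place of 13, losing Trim26 in both cases and Trim46 without library 2, and the counts after IL4 in WT and between genotypes were the same.

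The tested members spanned a wide range of levels. Levels were compared between genes in transcripts per 1000000 (TPM), which corrects for transcript length. Trim66, the lowest tested member, had a mean of 0.0561 TPM. A mean over the 18 libraries of at least 10 TPM was reached by 22 members, a mean of 1 to 10 TPM by 15, and 5 tested members lay under 1 TPM. Trim28 led with 101 TPM (65.9 to 143 over the libraries). Trim8, a regulator of cytokine signalling, followed with 78.3 TPM. Trim25 had 69.0 TPM and Trim30a, a mouse relative of Trim5 that dampens Toll-like receptor signalling, 67.3 TPM. The order of these 3 rests on the treatments sampled, because Trim30a ranged from 14.4 to 195 TPM over the libraries. The next 6 by mean level were Trim35 (49.0 TPM), Trim47 (42.3 TPM), Trim14 (37.0 TPM), Trim26 (32.1 TPM), Trim12a (30.5 TPM) and Trim41 (26.9 TPM).

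Most members known from muscle, epithelia, blood, germ or stem cells were absent or near absent, and so were Trim9 and Trim67 among those known from neurons. No count was found in any library for 12 members, which were Trim10, Trim31, Trim40, Trim42, Trim50, Trim54, Trim58, Trim60, Trim61, Trim63, Trim71 and Trim80. Trim63 is the muscle ligase MuRF1, Trim54 its sarcomeric relative and Trim71 a stem cell protein. Another 14 had between 1 and 70 counts summed over all libraries and did not pass the filter: Trim9, Trim15, Trim29, Trim34b, Trim38, Trim43a, Trim43b, Trim43c, Trim52, Trim55, Trim67, Trim69, Trim72 and Trim75. None of 5 muscle members and 1 of 16 members known from epithelia, blood, germ or stem cells (Trim17) was tested. Of 6 neuronal members 4 were tested, led by Trim3 with a mean of 25.3 TPM, ahead of Trim36 (4.19 TPM), Trim2 (1.00 TPM) and Trim46 (0.548 TPM). Just inside the filter lay Trim66 with 118 counts, Trim17 with 189 and Trim6 with 192. Just outside it lay Trim29 with 70 counts and Trim34b and Trim72 with 49 each.

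**Figure D1:**
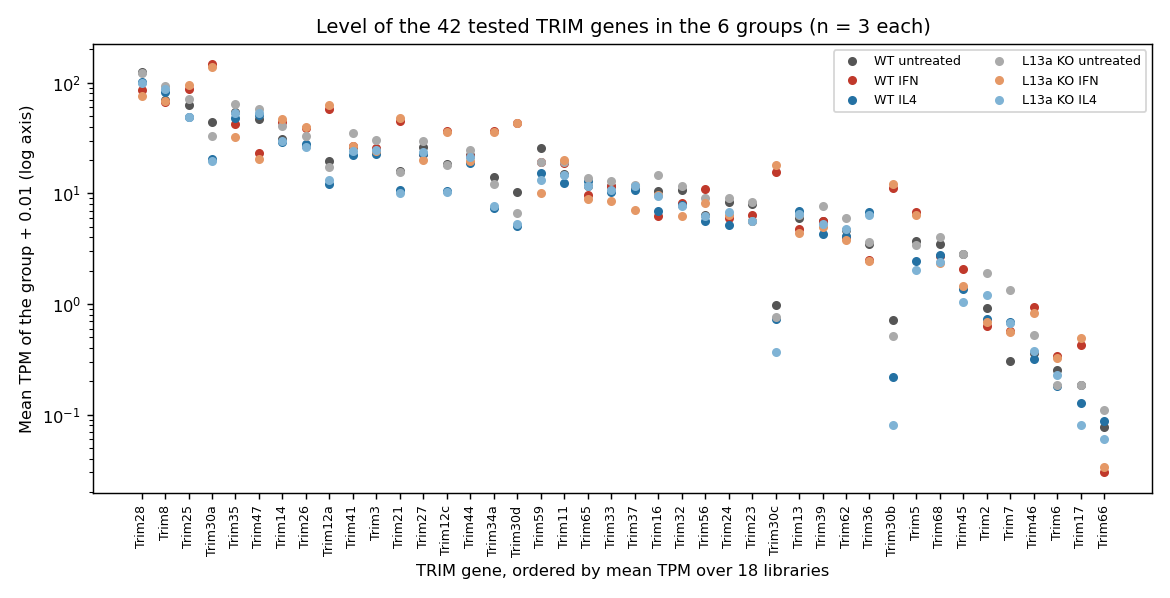
Mean TPM of each group (y axis, log scale, 0.01 added; n = 3 libraries per point) for the 42 tested members, ordered by their mean over 18 libraries. Trim28 leads at 101 TPM, and the points of Trim30a, Trim30b, Trim30c and Trim30d lie well apart between IFN and the other groups.

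IFN raised the transcripts of a group of related members, and most of the family did not pass the test. In WT it raised 11 and lowered 2 of the 42 tested members (edgeR quasi-likelihood test, Benjamini-Hochberg adjusted p under 0.05 over 12514 genes), which is 31% of the members, where 18.6% of all tested genes were called. By direction, 26.2% of members rose against 11.1% of all genes and 4.76% fell against 7.55%. The knockout had 12 higher and 4 lower, or 38.1% of members against 21.6% of all genes, with 28.6% rising against 12.6% and 9.52% falling against 8.93%. The 12 include Trim17, which passed the count filter only through its IFN libraries, as described below. Rises were more frequent among the members than among all genes, and falls were near or under the background. At an unadjusted p under 0.05 there were 17 members in WT (40.5%, against 30.9% of all genes) and 23 in L13a KO (54.8%, against 32.7%). The median log2 fold change over the 42 members was 0.10 in WT and -0.08 in L13a KO, beside -0.02 and -0.03 over all genes, so the middle of the family lay near that of all genes. With limma on log2(TPM + 1) the split in L13a KO was 9 higher and 8 lower, on a scale where the median of all genes itself moved to -0.31.

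The same 10 members rose in both genotypes: Trim5, Trim12a, Trim12c, Trim21, Trim26, Trim30a, Trim30b, Trim30c, Trim30d and Trim34a. They were 90.9% of the members that rose in WT and 83.3% of those that rose in L13a KO. The overlap between genotypes was not counted over all genes, so these shares have no background and do not mark a trait of the family. Those 2 comparisons share no library. They come from the same fit, however, and same-numbered libraries of the genotypes deviated together after IFN, as described below. The median log2 fold change of the 10 was 1.64 in WT and 2.08 in L13a KO. All but Trim26 stayed called in both genotypes under each of 13 alternative settings, which include leaving out each library in turn.

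**Figure D2:**
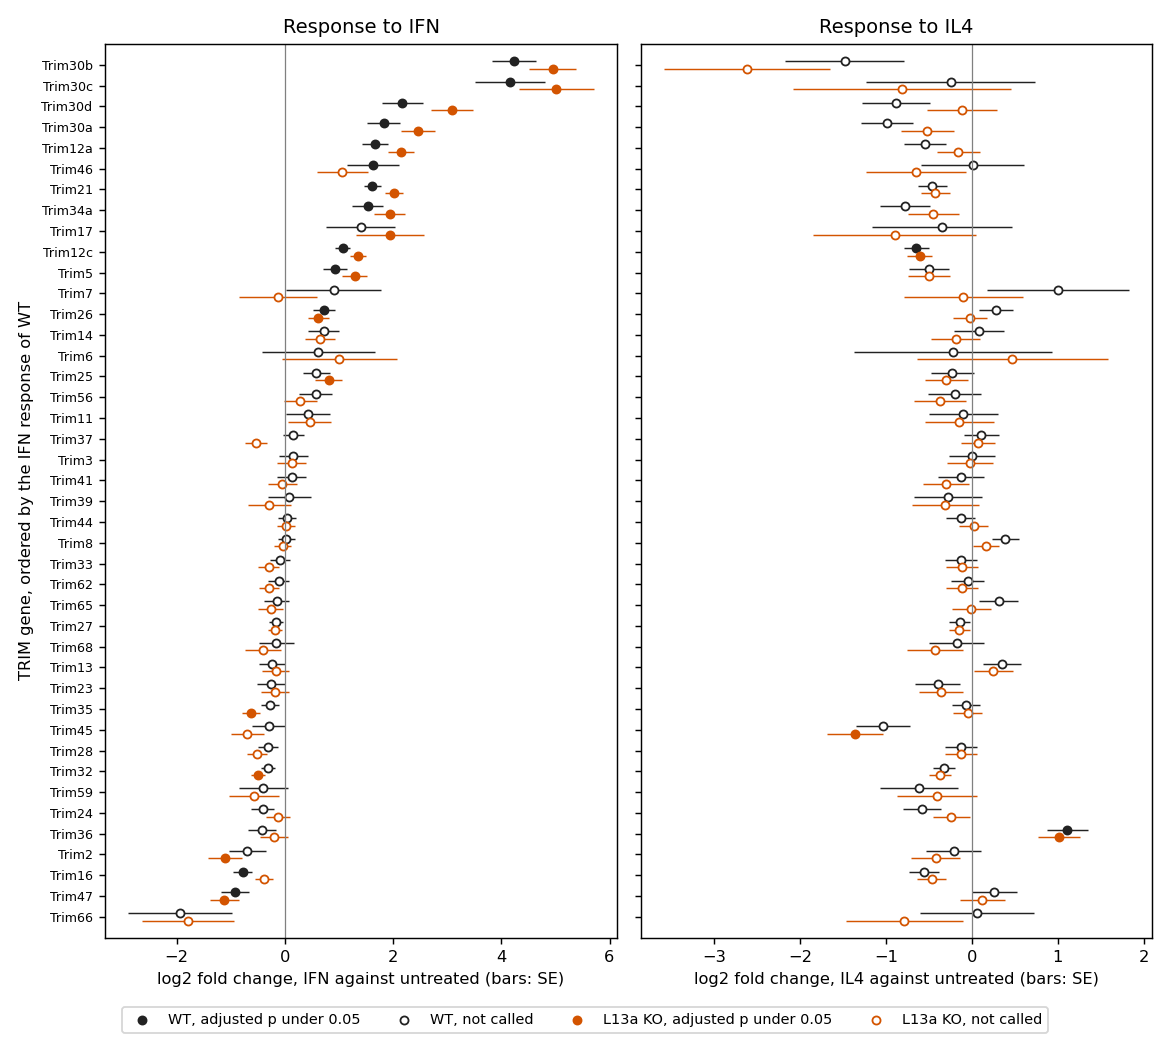
Log2 fold change with its standard error for the 42 tested members after IFN (left) and IL4 (right), each against untreated cells, in WT (black) and L13a KO (orange). Filled points have an adjusted p under 0.05. The Trim30 genes reach the highest values after IFN, and after IL4 the filled points are Trim12c, Trim36 and, in L13a KO, Trim45.

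The Trim30 genes showed the largest rises. Trim30b measured 1.44, 1.69 and 0.672 CPM in the untreated WT libraries and 22.8, 13.3 and 34.9 CPM after IFN. The L13a KO libraries had 1.09, 0.751 and 0.725 CPM untreated and 19.5, 42.8 and 18.2 CPM after IFN. The lowest treated library was several times above the highest untreated one in both genotypes. The log2 fold change was 4.23 (SE 0.407, adjusted p = 4.91e-07, edgeR) in WT and 4.95 (SE 0.43, adjusted p = 1.09e-07, edgeR) in L13a KO.

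Trim30c lay as low before treatment, at 0.610, 1.29 and 0.813 CPM in WT and 0.544, 0.858 and 0.429 CPM in L13a KO. After IFN it measured 8.43, 11.9 and 27.3 CPM in WT and 6.01, 36.4 and 15.1 CPM in L13a KO. Treated and untreated libraries did not overlap, but the treated ones differed widely among themselves. Log2 fold changes of 4.16 (SE 0.649) in WT and 5.02 (SE 0.686) in L13a KO were called at adjusted p of 0.000238 and 5.67e-05 (edgeR).

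Trim30a started from a far higher level than Trim30b or Trim30c and carried most of the transcripts of this subgroup. In WT it rose from 73.6, 102 and 112 CPM to 307, 239 and 479 CPM. Its L13a KO values went from 58.4, 64.6 and 63.2 CPM to 218, 482 and 331 CPM. No untreated library reached the lowest treated one. Log2 fold changes were 1.83 (SE 0.306, adjusted p = 0.000489, edgeR) in WT and 2.47 (SE 0.314, adjusted p = 3.22e-05, edgeR) in L13a KO. In TPM the group means went from 44.2 ± 6.91 to 147 ± 38.9 in WT (SD, n = 3) and from 32.7 ± 1.57 to 140 ± 54.1 in L13a KO (SD, n = 3).

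Trim30d, the neighbour of Trim30a, had 16.1, 17.4 and 16.2 CPM in untreated WT and 63.1, 47.6 and 113 CPM after IFN. Knockout libraries had 12.0, 7.47 and 8.00 CPM untreated and 47.7, 122 and 64.3 CPM after IFN. Again the groups did not overlap. IFN changed it by 2.17 (SE 0.377) and 3.09 (SE 0.396) on the log2 scale, with adjusted p of 0.000702 and 3.63e-05 (edgeR). For all 4 Trim30 genes the highest WT library was IFN library 6 and the highest L13a KO library was IFN library 5.

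The other responders of the same gene cluster, Trim34a and the relatives of primate TRIM5, had log2 fold changes of 0.93 to 1.67 in WT. Trim34a had 23.0, 19.0 and 17.5 CPM in untreated WT against 50.8, 40.1 and 81.8 CPM after IFN, and 17.6, 16.4 and 12.0 CPM against 43.7, 82.1 and 49.6 CPM in L13a KO. Its groups did not overlap in either genotype, and it changed by 1.53 (SE 0.28, adjusted p = 0.00104, edgeR) and 1.94 (SE 0.285, adjusted p = 0.00013, edgeR) on the log2 scale. Of its distinct runs of 50 bases 39.8% also occur in other transcripts, mainly those of Trim34b, so the split of counts between these copies is uncertain.

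Trim12a had 17.8, 14.5 and 15.97 CPM in untreated WT and 49.5, 39.4 and 64.7 CPM after IFN, a log2 fold change of 1.67 (SE 0.238, adjusted p = 0.000114, edgeR). Trim12c was tighter between replicates, with 39.4, 38.2 and 38.6 CPM untreated and 88.7, 71.3 and 83.5 CPM after IFN, a log2 fold change of 1.07 (SE 0.143, adjusted p = 6.02e-05, edgeR). Trim5 was the least abundant, at 7.95, 7.21 and 8.12 CPM untreated and 15.9, 15.6 and 12.8 CPM after IFN, a log2 fold change of 0.93 (SE 0.219, adjusted p = 0.00675, edgeR). All treated libraries of these 3 genes lay above all untreated ones. In L13a KO the log2 fold changes were 2.15 (SE 0.243) for Trim12a, 1.35 (SE 0.144) for Trim12c and 1.29 (SE 0.224) for Trim5, with adjusted p of 9.73e-06, 5.39e-06 and 0.000605 (edgeR), and the libraries did not overlap there either. Trim5, Trim12c and Trim12a share 36.3%, 33.0% and 10.4% of their runs of 50 bases with other genes, mostly with each other, so which of these copies the counts belong to is uncertain.

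**Figure D3:**
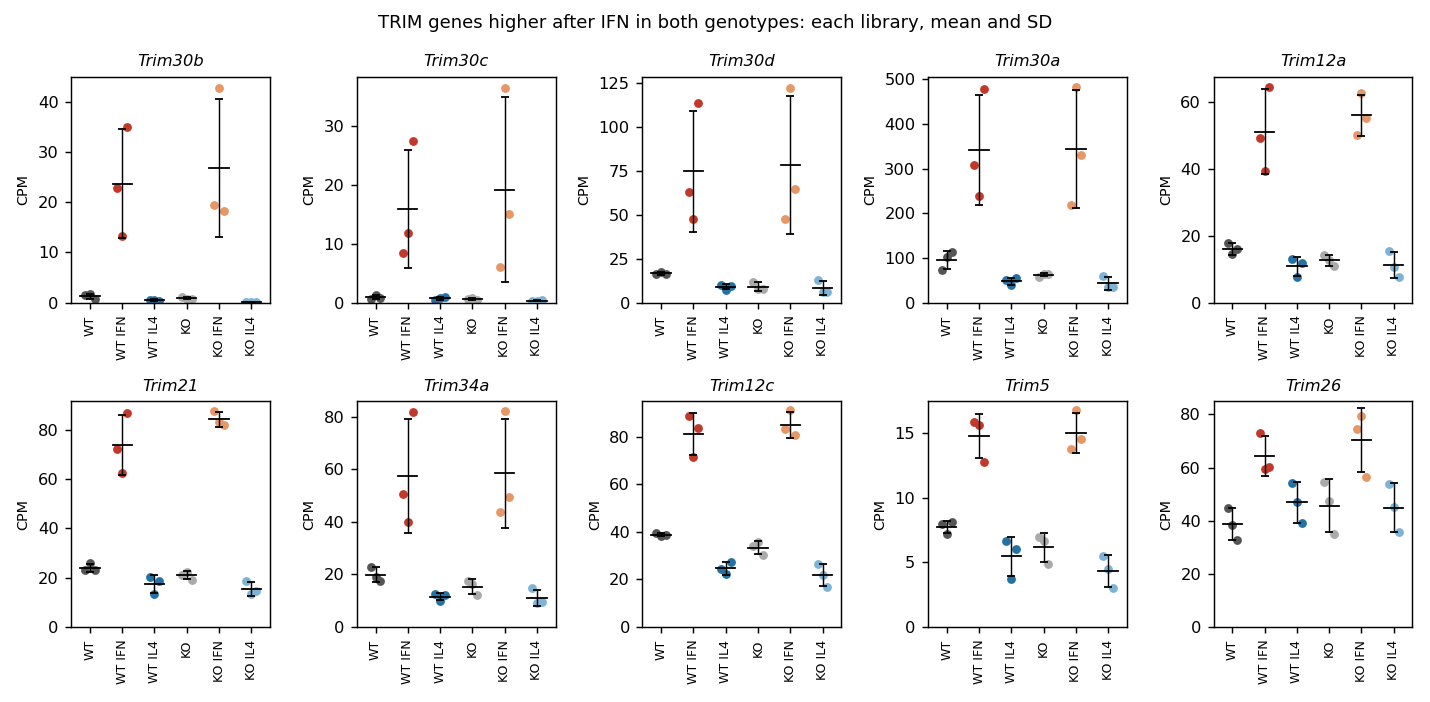
CPM in each library (points), with the group mean (line) and SD (bar, n = 3), for the 10 members that rose after IFN in both genotypes, ordered by their WT response; KO stands for L13a KO. In every panel all IFN libraries lie above all untreated libraries of the same genotype.

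Most of these genes lie side by side. In GENCODE vM21 on GRCm38, chr7:104218793-104507849 holds 10 protein-coding genes and all 10 are members: Trim6, Trim34a, Trim5, Trim12a, Trim34b, Trim12c, Trim30b, Trim30c, Trim30a and Trim30d, in that order. Of the 9 tested there, 8 rose after IFN in both genotypes, with a median log2 fold change of 1.67 in WT and 2.15 in L13a KO over the 9. Trim34b did not pass the filter. Trim6, a low gene with 1.03, 0.108 and 0 CPM in untreated WT, was not called (log2 fold changes of 0.62, SE 1.04, in WT and 1.01, SE 1.07, in L13a KO, adjusted p = 0.747 and 0.57, edgeR). Chromosome 7 carries 16 of the 68 members, among them Trim21 and Trim28 outside the cluster. Trim26, on chromosome 17, was the only member that rose in both genotypes from another chromosome.

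**Figure D4:**
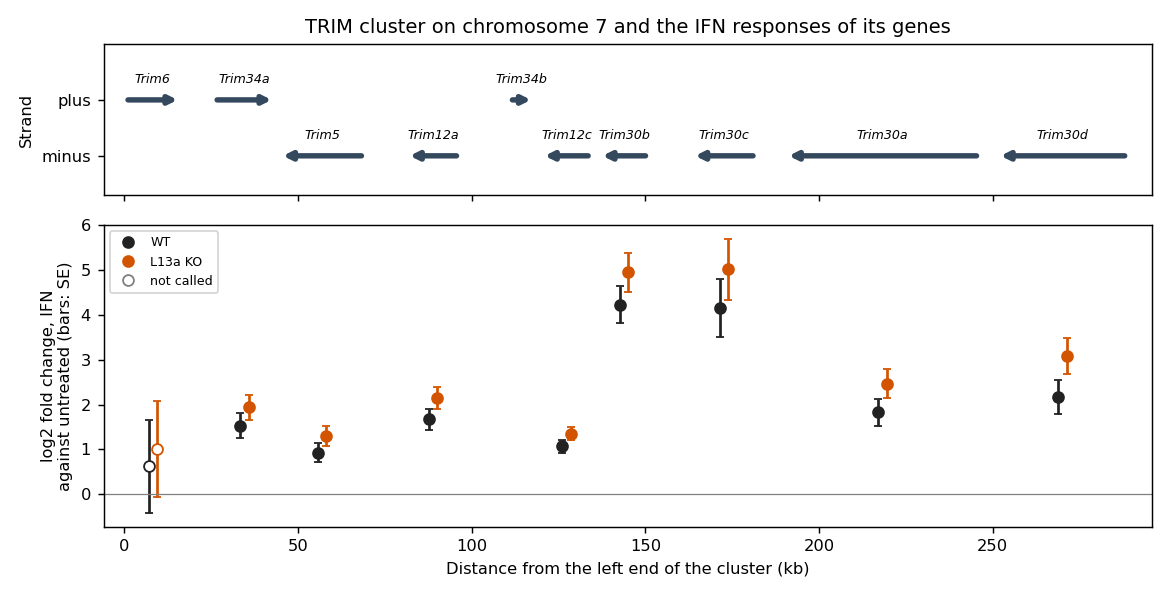
Upper panel: the 10 TRIM genes of the chromosome 7 cluster drawn to scale, with arrows in the direction of transcription. Lower panel: log2 fold change after IFN with its standard error at each gene's midpoint, in WT (black) and L13a KO (orange). Trim30b and Trim30c in the middle have the highest values, and Trim6 at the left end is not called; Trim34b was not tested.

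Interferon response factors bind a motif made of GAAA, any 2 bases and GAAA again, and promoter windows from RefSeq (GRCm38.p6, 250 bases before to 50 after each start) were searched for it on both strands. A window was given for 53 of the 68 members and for 32 of the 42 tested. The motif was present for 8 of the 10 members that rose in both genotypes (80.0%) and for 1 of the 20 tested members with a window that rose in neither (5.0%, Trim2). Over all genes with a window it was found for 3.99%. Copies of 1 ancestral gene share promoter sequence, so these 8 are not independent cases. Trim30b and Trim30c, the genes with the largest rises, do not have these letters in their windows. A match describes the sequence and does not show a bound site.

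The matching stretches are shown for the 8 genes to let the copies be compared, at both annotated starts of Trim30a, with the motif in capitals, on the strand where it reads GAAA. Overlapping matches are capitalised as 1 run. They lie at chr7:104465210-104465239 (plus strand) for the first Trim30a line and chr7:104446104-104446133 (plus) for the second, chr7:104507871-104507900 (plus) for Trim30d, chr7:104315466-104315495 (plus) for Trim12a, chr7:104353359-104353388 (plus) for Trim12c, chr7:104288136-104288165 (plus) for Trim5, chr7:104244457-104244486 (minus) for Trim34a, chr7:102565447-102565476 (minus) for Trim21 and chr17:36836979-36837008 (minus) for Trim26.
Trim30a: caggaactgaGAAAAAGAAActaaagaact
Trim30a, second start: caggaactgaGAAAAAGAAActaaaaacaa
Trim30d: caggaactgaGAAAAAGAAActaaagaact
Trim12a: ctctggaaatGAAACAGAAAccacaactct
Trim12c: agctggaaatGAAACAGAAAccacaactct
Trim5: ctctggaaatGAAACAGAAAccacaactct
Trim34a: gcagagaaaaGAAACTGAAActccaaacca
Trim21: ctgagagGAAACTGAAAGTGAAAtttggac
Trim26: ggcccgaGAAAAGGAAAGTGAAAtcggaag
The first Trim30a stretch and that of Trim30d were identical, and so were Trim12a and Trim5. Relative to the RefSeq start, the motif began 36 bases before it at the first Trim30a start, 41 before it in Trim30d, 29 before it in Trim12c and 49 before it in Trim5. It lay just after the start in Trim12a, Trim34a, Trim21 and at the second Trim30a start. The GENCODE start of Trim12a lies further along the gene, so that there the motif comes before it. The end of the window was not found in the GENCODE transcripts of the gene for Trim12a and for 1 of the 2 Trim30a windows. In Trim26 it lay 145 to 160 bases before the start.

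Among the members known to regulate innate sensing, Trim21 rose with little spread between libraries. Its untreated WT libraries had 23.0, 26.0 and 23.0 CPM and its IFN libraries 72.2, 62.3 and 86.6 CPM. In L13a KO the values were 21.2, 22.4 and 19.2 CPM untreated and 87.6, 83.0 and 81.7 CPM after IFN. The gap between the groups was wide in both genotypes, with log2 fold changes of 1.62 (SE 0.165, adjusted p = 3.86e-06, edgeR) and 2.01 (SE 0.167, adjusted p = 3.42e-07, edgeR).

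Trim26, which regulates IRF3 signalling, rose in both genotypes. It had 44.8, 38.5 and 32.7 CPM untreated and 72.8, 59.6 and 60.3 CPM after IFN in WT, and 54.4, 47.6 and 34.9 CPM against 74.6, 79.6 and 56.6 CPM in L13a KO. All IFN libraries lay above all untreated ones of their genotype. Its log2 fold changes came to 0.73 (SE 0.2, adjusted p = 0.0164, edgeR) and 0.62 (SE 0.199, adjusted p = 0.034, edgeR). The WT call was lost without untreated library 2, untreated library 3 or IFN library 4 (edgeR adjusted p = 0.0512, 0.0818 and 0.0686), and the L13a KO call without untreated library 2 or 3 or IFN library 4 or 5 (edgeR adjusted p = 0.0728, 0.15, 0.096 and 0.128). With limma on log2(TPM + 1) neither was called (adjusted p = 0.125 and 0.321), and a fit on only the groups compared lost the L13a KO call (adjusted p = 0.0879).

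Trim25, already abundant, had 217, 194 and 194 CPM in untreated WT and 303, 273 and 326 CPM after IFN, which did not pass the test although the groups did not overlap (log2 fold change of 0.58, SE 0.249, adjusted p = 0.125, edgeR). A fit on only the groups compared called it higher in WT (log2 fold change of 0.56, adjusted p = 0.0202, edgeR). In the reported fit Trim25 did pass in L13a KO, from 241, 185 and 179 CPM to 255, 527 and 275 CPM (log2 fold change of 0.81, SE 0.249, adjusted p = 0.0295, edgeR). A single library, IFN 5, was far above the other 2. Without it the log2 fold change was 0.39 and the adjusted p 0.216 (edgeR), and the call was also lost without untreated library 2 or 3 (edgeR adjusted p = 0.0984 and 0.0951), with limma on log2(TPM + 1) (0.311) and in a fit on only the groups compared (0.122). The difference of the WT and L13a KO responses was 0.23 (95% interval -0.51 to 0.98), so the call in 1 genotype does not show that the genotypes differed.

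Of 14 tested regulators of innate sensing, 2 rose and 0 fell in WT, and 3 rose and 2 fell in L13a KO. Over all genes 11.1% rose and 7.55% fell in WT, and 12.6% rose and 8.93% fell in L13a KO. So few calls do not set these regulators apart from all genes. The median log2 fold change of the regulators was 0.06 in WT and -0.11 in L13a KO, beside -0.02 and -0.03 over all genes. Trim14, a mitochondrial adaptor of RIG-I signalling, had log2 fold changes of 0.72 (SE 0.285) and 0.65 (SE 0.283) and was not called (adjusted p = 0.0949 and 0.122, edgeR). Trim56, which acts on STING, had 0.57 (SE 0.304) and 0.29 (SE 0.304), again not called (adjusted p = 0.224 and 0.575, edgeR). Trim8 was at 147, 113 and 120 CPM in untreated WT and 126, 129 and 134 CPM after IFN, with a log2 fold change of 0.03 (SE 0.153). Trim13 and Trim27 were not called either, with log2 fold changes of -0.23 (SE 0.24) and -0.16 (SE 0.123) in WT.

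Calls made in 1 genotype only included 2 low members. Trim46, a microtubule organiser of neurons, rose in WT from 0.610, 0.178 and 0.601 CPM to 1.82, 1.39 and 1.33 CPM (log2 fold change of 1.63, SE 0.481, adjusted p = 0.0248, edgeR). In L13a KO the change was 1.06 (SE 0.471, adjusted p = 0.129, edgeR), and the difference between genotypes was -0.58 (95% interval -2.03 to 0.87). The WT call was lost without untreated library 2 or IFN library 4 or 5 (edgeR adjusted p = 0.0943, 0.0925 and 0.0503), and in 6 of 13 alternatives in all. Trim17 rose in L13a KO from 0.359, 0.477 and 0.0521 CPM to 0.858, 0.892 and 1.64 CPM (log2 fold change of 1.95, SE 0.626, adjusted p = 0.0299, edgeR), where the WT change was 1.40 (SE 0.635, adjusted p = 0.136, edgeR). It reached the count filter's level of 0.464 CPM in 5 of 6 IFN libraries and in 2 of the 12 others, so it was tested only because of the treated libraries. Its call was lost in 8 of 13 alternatives. These were leaving out untreated library 1 or 3 or IFN library 6 (edgeR adjusted p = 0.054, 0.137 and 0.136), DESeq2 (0.116), limma on log2(TPM + 1) (0.0796), no filter (0.0504), only the groups compared (0.0923) and the older quasi-dispersion (0.18). Of its runs of 50 bases 17.7% are shared with Hist3h2a and other genes.

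The falls called after IFN reached 1.12 on the log2 scale, where the rises reached 5.02, and all were of members outside the chromosome 7 cluster. Trim47 was the only member lower in both genotypes. It had 63.8, 52.8 and 49.9 CPM in untreated WT and 30.5, 33.3 and 23.9 CPM after IFN, and 46.9, 87.4 and 50.5 CPM against 25.6, 34.2 and 24.7 CPM in L13a KO. Every IFN library lay below every untreated library of its genotype. It fell by 0.92 on the log2 scale in WT (SE 0.267, adjusted p = 0.0229, edgeR) and by 1.12 in L13a KO (SE 0.268, adjusted p = 0.00654, edgeR). The WT call was lost without untreated library 1 or IFN library 4 or 6 (edgeR adjusted p = 0.0742, 0.0552 and 0.0953). Trim47 overlaps Trim65 on the same strand, and 6.6% of its runs of 50 bases are shared.

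Trim16, which takes part in the autophagy of damaged lysosomes, fell in WT from 20.5, 17.8 and 19.3 CPM to 10.7, 12.96 and 9.75 CPM (log2 fold change of -0.78, SE 0.175, adjusted p = 0.00468, edgeR), a call lost with limma on log2(TPM + 1) (adjusted p = 0.0986). In L13a KO it was at 22.3, 22.9 and 19.6 CPM untreated and 19.5, 16.3 and 13.9 CPM after IFN, and was not called (log2 fold change of -0.38, SE 0.17, adjusted p = 0.133, edgeR). The difference of the 2 responses was 0.41 (95% interval -0.11 to 0.92, adjusted p = 1, edgeR).

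In L13a KO alone, 3 further members were called lower. Trim2, a ligase of neurons, fell from 6.63, 7.05 and 6.13 CPM to 2.33, 2.44 and 4.58 CPM (log2 fold change of -1.10, SE 0.312, adjusted p = 0.0189, edgeR). Trim35 fell from 107, 121 and 126 CPM to 57.1, 78.6 and 95.8 CPM (log2 fold change of -0.62, SE 0.17, adjusted p = 0.0157, edgeR). Trim32, which is mutated in a limb-girdle muscular dystrophy, fell from 18.5, 19.0 and 17.8 CPM to 12.2, 13.7 and 13.1 CPM (log2 fold change of -0.50, SE 0.131, adjusted p = 0.0113, edgeR). Treated and untreated libraries did not overlap in any of the 3. The WT changes were -0.69, -0.27 and -0.31 and did not pass the test, and no difference between the genotypes did. Without IFN library 4 the edgeR adjusted p rose to 0.0869 for Trim2, 0.0742 for Trim35 and 0.0504 for Trim32, and that of Trim2 rose to 0.0522 without untreated library 2 and 0.0845 without IFN library 5. A fit on only the groups compared lost all 3 calls (adjusted p = 0.057, 0.0852 and 0.0658).

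None of the 4 chromatin corepressors passed the test after either cytokine. Trim28 had 168, 211 and 206 CPM in untreated WT and 144, 161 and 167 CPM after IFN, and 151, 166 and 232 CPM against 119, 116 and 150 CPM in L13a KO. Every IFN library was below every untreated one of its genotype, by 0.31 (SE 0.189) and 0.51 (SE 0.19) on the log2 scale, with adjusted p of 0.294 and 0.0673 (edgeR). On the log2(TPM + 1) scale limma called Trim28 lower in both (adjusted p = 0.021 and 0.00324), and without L13a KO untreated library 1 edgeR called it in L13a KO (adjusted p = 0.0379). The median of all genes after IFN in L13a KO itself moved down on the log2(TPM + 1) scale, as given above. Trim28 overlaps Zbtb45 on the opposite strand, as Trim46 does Krtcap2, Trim14 does Nans and Trim32 does Astn2, and reads of such partners may not be told apart here. Trim24 and Trim33, which form a nuclear complex with Trim28, had log2 fold changes of -0.41 (SE 0.219) and -0.09 (SE 0.188) after IFN in WT.

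Markers of fibroblasts and bone-forming cells moved with IFN in WT. Their summed level was 557 to 649 CPM in untreated WT and 58.5 to 115 CPM after IFN, with 13 and 12 of 14 markers detected. In L13a KO it was 67.9 to 239 CPM untreated and 26.0 to 397 CPM after IFN. In a bulk sample fewer cells of a type and less RNA per cell cannot be told apart. The part of these cells in the falls after IFN was not tested.

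IL4 changed few members. In WT it raised 1 and lowered 1 of the 42, or 4.76% of members against 8.49% of all tested genes (4.96% higher, 3.53% lower). The L13a KO cells had 1 higher and 2 lower, or 7.14% against 9.48% of all genes (5.35% higher, 4.12% lower). These shares rest on 2 and 3 members, so they do not set the family apart from all genes. At an unadjusted p under 0.05 the numbers were 14 in WT (33.3%, against 20.9% of all genes) and 7 in L13a KO (16.7%, against 22.4%). In sign, 31 of the 42 members had a log2 fold change below 0 in WT and 35 did in L13a KO, with medians of -0.19 and -0.27 beside -0.01 and 0.01 over all genes.

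Trim36, a ligase studied in development and in neurons, was the member that rose. It had 9.88, 8.82 and 8.69 CPM in untreated WT and 13.7, 19.0 and 26.5 CPM after IL4, and 7.66, 8.29 and 9.02 CPM against 22.3, 11.7 and 16.3 CPM in L13a KO. The IL4 libraries lay above the untreated ones in both genotypes but differed widely among themselves. Log2 fold changes were 1.11 (SE 0.242, adjusted p = 0.00841, edgeR) and 1.01 (SE 0.245, adjusted p = 0.0153, edgeR). The WT call was lost without IL4 library 9 (edgeR adjusted p = 0.0537), and the L13a KO call without untreated library 1 or 2 or IL4 library 7 (edgeR adjusted p = 0.0617, 0.0547 and 0.0749). Neither was called with limma on log2(TPM + 1) (adjusted p = 0.0527 and 0.0997), and a fit on only the groups compared lost the L13a KO call (0.107). After IFN it was not called, at 7.67, 6.23 and 6.56 CPM in WT.

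Trim12c, which rose after IFN, fell after IL4. It was at 24.3, 22.1 and 27.4 CPM in IL4-treated WT against 38.2 to 39.4 CPM untreated, and at 26.4, 22.0 and 17.0 CPM in L13a KO against 30.3 to 35.7 CPM. No IL4 library reached the untreated level. Log2 fold changes were -0.65 (SE 0.145, adjusted p = 0.00923, edgeR) and -0.61 (SE 0.146, adjusted p = 0.0147, edgeR). Without WT IL4 library 8 the adjusted p was 0.0549, and without L13a KO untreated library 2 it was 0.0501, or 0.134 with only the groups compared (edgeR).

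Trim45 fell after IL4 in L13a KO, from 4.66, 3.72 and 2.87 CPM to 1.87, 0.898 and 1.56 CPM (log2 fold change of -1.36, SE 0.327, adjusted p = 0.0151, edgeR). In WT it went from 3.92, 3.86 and 3.57 CPM to 2.72, 1.01 and 1.70 CPM, with a similar change that did not pass (log2 fold change of -1.04, SE 0.314, adjusted p = 0.052, edgeR). The groups did not overlap in either genotype. The L13a KO call was lost without untreated library 1 or IL4 library 8 or with only the groups compared (edgeR adjusted p = 0.0636, 0.0741 and 0.117). In WT it was called without IL4 library 7 (edgeR adjusted p = 0.0172), with RLE size factors (0.0478) and with DESeq2 (0.0251).

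The other members that rose after IFN lay mostly below 0 after IL4 without passing the test. Of the 10, 9 had a negative log2 fold change in WT and 10 in L13a KO, with medians of -0.60 and -0.47, but only Trim12c was called in the reported fit. The IFN and IL4 comparisons of a genotype share their untreated libraries, so these signs are not independent of the IFN rises. Trim30a had 51.0, 39.04 and 54.2 CPM after IL4 in WT, all under the untreated 73.6 CPM or more (log2 fold change of -0.99, SE 0.304, adjusted p = 0.0559, edgeR), and 60.3, 33.9 and 35.4 CPM in L13a KO (log2 fold change of -0.52, SE 0.305, adjusted p = 0.351, edgeR). Without WT untreated library 1 the WT value was called (edgeR adjusted p = 0.0358). DESeq2 (adjusted p = 0.0147), limma on log2(TPM + 1) (0.0317) and an edgeR fit on only the groups compared (0.0164) called it too. That last fit also called Trim30d and Trim34a lower in WT (edgeR adjusted p = 0.0221 and 0.0327). Trim30b reached 0.122, 0.189 and 0.0974 CPM after IL4 in L13a KO, near the level of 3 counts, with a log2 fold change of -2.62 (SE 0.965, adjusted p = 0.0998, edgeR). DESeq2 called that value (adjusted p = 0.00148), as did edgeR with the older quasi-dispersion (0.0136) or only the groups compared (0.0298). In WT, DESeq2 also called Trim30b lower (adjusted p = 0.0424).

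Trim8, an abundant member, lay higher after IL4 in all 3 WT libraries, at 173, 170 and 156 CPM against 147 CPM or less untreated, but it did not pass (log2 fold change of 0.39, SE 0.153, adjusted p = 0.141, edgeR). In L13a KO its libraries overlapped (log2 fold change of 0.16, SE 0.152, adjusted p = 0.628, edgeR). Trim16 was called lower after IL4 in WT only in alternatives: DESeq2 (adjusted p = 0.016), and edgeR with RLE size factors (0.0449) or the Y-linked covariate (0.0439). In L13a KO it was called lower without IL4 library 7 (edgeR adjusted p = 0.0381). Trim32 was called lower in L13a KO by DESeq2 (adjusted p = 0.0372) and limma on log2(TPM + 1) (0.0334).

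Markers of other cell types also moved with IL4. The summed level of the dendritic cell markers went from 30.1 to 108 CPM in untreated WT to 608 to 976 CPM, and from 44.2 to 89.5 CPM to 589 to 1241 CPM in L13a KO. Most of that sum was Itgax, at 55.7 CPM on average in untreated WT and 764 CPM after IL4, and of 6 tested markers only Itgax and Zbtb46 were called. Xcr1, Cd209a and Ccr7 had log2 fold changes of -1.34, -1.37 and -1.87 in WT and were not called. Clec9a went the other way from a level near 0 (4.50, from 0.0148 to 0.386 CPM on average) and was not called either. In WT, 7 of 8 of these markers were detected both untreated and after IL4, with Siglech at 0, and 8 of 8 were in L13a KO. The list moved with IFN as well, where Clec9a (0.0148 to 74.8 CPM on average in WT) and Xcr1 (0.730 to 13 CPM) were called higher in both genotypes. The fibroblast and bone-forming markers, summed at 557 to 649 CPM in untreated WT, were at 144 to 286 CPM after IL4, with 2 of 12 called lower, and at 107 to 564 CPM in L13a KO, with 0 called. The part of either list in the changes of Trim36, Trim12c and Trim45 was not tested.

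**Figure D5:**
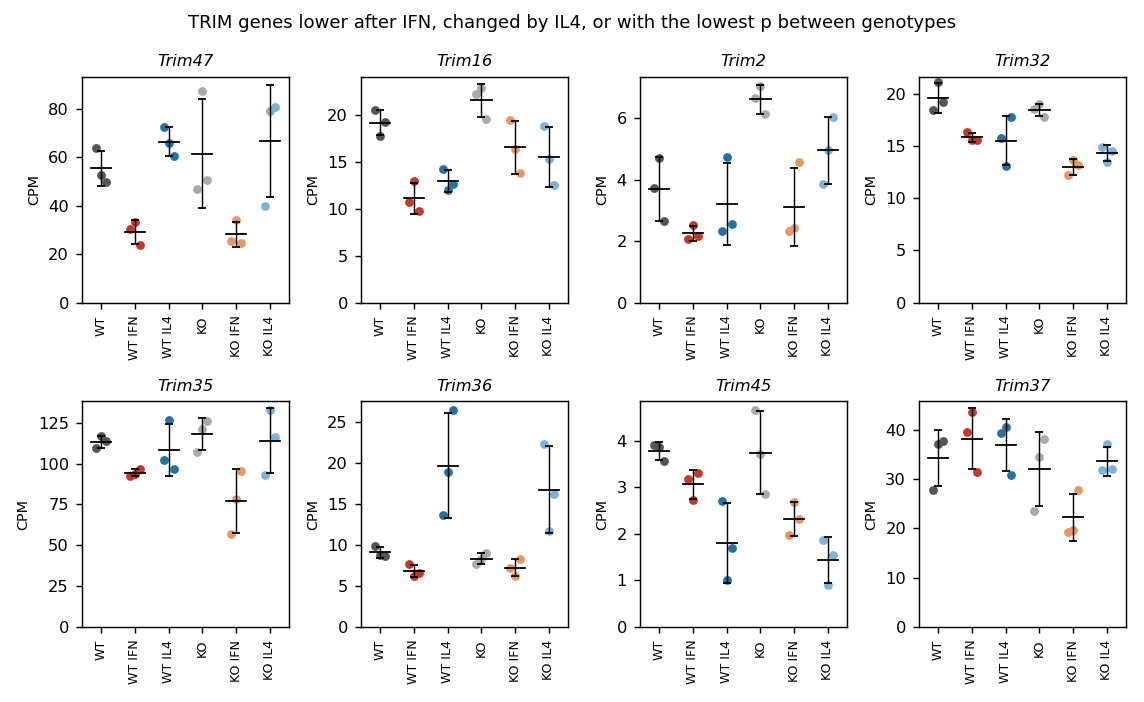
CPM in each library (points), group mean (line) and SD (bar, n = 3) for members that fell after IFN (Trim47, Trim16, Trim2, Trim32, Trim35), members called after IL4 (Trim36 and Trim45) and Trim37, which had the lowest p between genotypes after IFN; KO stands for L13a KO. Trim47 is low in all 6 IFN libraries, and Trim36 is high in all 6 IL4 libraries.

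No member was called different between L13a KO and WT. The count was 0 of 42 in untreated, IFN-treated and IL4-treated cells and for both differences of responses (edgeR), where 0.0799%, 0.0639%, 0.0639%, 0% and 0% of all tested genes were called. DESeq2 also called 0 in each. At an unadjusted p under 0.05 there were 2, 2, 0, 1 and 0 members (4.76%, 4.76%, 0%, 2.38% and 0%, against 7.54%, 5.79%, 2.46%, 4.93% and 1.99% of all genes). With the replicate number as a block, the count remained 0 in all 5.

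Trim2 had the lowest p in untreated cells, at 6.63, 7.05 and 6.13 CPM in L13a KO against 3.72, 4.70 and 2.65 CPM in WT. All 3 L13a KO libraries were above WT, by 0.85 on the log2 scale (95% interval 0.24 to 1.46, adjusted p = 0.436, edgeR). After IL4 its difference was 0.64 (95% interval -0.03 to 1.31). Trim37, a centrosome and peroxisome ligase, was lower in the IFN-treated L13a KO libraries, at 19.2, 19.8 and 27.8 CPM against 39.5, 43.6 and 31.4 CPM. Those groups did not overlap, and the log2 difference was -0.78 (95% interval -1.22 to -0.35, adjusted p = 0.498, edgeR). Its response to IFN differed by -0.69 (95% interval -1.30 to -0.08, adjusted p = 0.928, edgeR). Trim16 was higher in IFN-treated L13a KO by 0.57 (95% interval 0.19 to 0.95, adjusted p = 0.572, edgeR), and Trim32 was lower by 0.28 (interval -0.57 to 0.00, adjusted p = 0.853, edgeR).

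None of the 10 members that rose with IFN in both genotypes was called for a genotype difference. Of the 10, 9 had a negative untreated difference and 9 a larger fitted IFN response in L13a KO. The medians were -0.36 for the untreated difference and 0.44 for the difference of the responses. Both use the same untreated libraries. The same signs were seen outside the family: 13 known IFN targets had medians of -0.59 and 0.55, and 14 genes of the RIG-I, MDA5, cGAS and STING pathways -0.31 and 0.17, beside 0.005 and -0.013 over all genes. For Trim30d the untreated difference was -0.85 (95% interval -1.68 to -0.02, adjusted p = 0.656, edgeR) and that of the responses 0.92 (95% interval -0.20 to 2.04). For Trim30a they were -0.63 (95% interval -1.27 to 0.01) and 0.64 (95% interval -0.26 to 1.53). For Trim21 they were -0.20 (95% interval -0.55 to 0.15) and 0.39 (95% interval -0.10 to 0.87). In IFN-treated cells the difference between genotypes was 0.01 (95% interval -0.62 to 0.64) for Trim30a and 0.07 (95% interval -0.68 to 0.82) for Trim30d. After IL4, Trim30b differed by -1.67 with a wide interval (-4.08 to 0.75).

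Markers of dividing cells varied between libraries of L13a KO, with summed levels of 212 to 888 CPM untreated, 200 to 622 CPM after IFN and 222 to 860 CPM after IL4, and less in WT (604 to 850 CPM over its 9 libraries). Trim59, a member linked to proliferation, was low in the same L13a KO libraries, at 12.8 CPM in untreated library 1, 13.2 and 10.8 CPM in IFN libraries 4 and 5 and 10.2 CPM in IL4 library 7, against 21.4 to 47.1 CPM in the other 5. It was not called in any comparison. The part of cell division in the genotype values was not tested.

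Some partners of the family rose with IFN, and most did not pass the test. Among 18 enzymes that charge or carry ubiquitin and related proteins for RING ligases, 3 rose in WT and 7 in L13a KO, and 0 fell in either, where 11.1% and 12.6% of all genes rose. Ube2l6, the conjugating enzyme for ISG15, had a log2 fold change of 1.35 in WT and 2.31 in L13a KO (adjusted p = 0.00986 and 0.000162, edgeR), and Uba7, the activating enzyme for ISG15, had 1.67 and 1.81 (adjusted p = 0.00265 and 0.00135, edgeR). Of 14 genes of the RIG-I, MDA5, cGAS and STING pathways, several of which are targets of TRIM proteins, 6 rose and 0 fell in WT, and 7 rose and 1 (Traf3) fell in L13a KO. Tmem173, which encodes STING, went from 39.3 ± 0.631 to 251 ± 32.4 CPM in WT (SD, n = 3). Ddx58, which encodes RIG-I, was called in L13a KO (log2 fold change of 1.74, adjusted p = 0.00995, edgeR) and not in WT (1.04, adjusted p = 0.111, edgeR). Of 18 genes from Toll-like receptors to NF-kB, 4 rose in each genotype (Myd88, Ticam1, Ticam2 and Chuk) and 1 fell in L13a KO (Ikbkg).

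Of 12 TRIM proteins with other symbols, 6 were tested and the same 2 rose after IFN in both genotypes. Over all genes 11.1% rose in WT and 12.6% in L13a KO. Pml, the scaffold of nuclear bodies, went from 38.7 ± 5.41 to 146 ± 33.6 CPM in WT (SD, n = 3), a log2 fold change of 1.92 (adjusted p = 1.66e-06, edgeR), and by 2.06 in L13a KO (adjusted p = 6.64e-07, edgeR). Rnf135, which activates RIG-I, had log2 fold changes of 0.90 and 0.92 (adjusted p = 0.0123 and 0.00965, edgeR). After IL4 0 of these 6 were called, as were 0 of the 18 ubiquitin enzymes in WT and 1 in L13a KO (Ube2e1). Over all genes 8.49% were called after IL4 in WT and 9.48% in L13a KO. The treatments themselves were visible in known targets, of which 12 of 13 for IFN in WT, 13 of 13 for IFN in L13a KO and 9 of 10 for IL4 in each genotype rose.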

How the data were processed

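Per the labels' protocols, poly-A RNA was made into libraries by a protocol for either stranded or unstranded cDNA, so reads of overlapping genes on opposite strands may not be separated. Per the submitters' processing notes, the authors ran RSEM 1.2.3 and Bowtie 0.12.8 on mm10. They deposited, per the file headers, expected counts per gene, which need not be whole, and TPM, which are scaled by transcript length to a total of 1000000. Another table of normalized values was not used. Of the expected counts 21.5% were not whole, and all were rounded.

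Counts passing filterByExpr (12514 genes) were normalized by TMM and fitted with edgeR 4.0.16 in R 4.3.3 (robust quasi-likelihood, 1 coefficient per group, all 18 libraries, biological coefficient of variation 0.301). P-values were adjusted by Benjamini and Hochberg over all tested genes in each of 9 comparisons, and called at an adjusted p under 0.05. These are IFN or IL4 against no treatment within a genotype, L13a KO against WT in each treatment, and the differences of the responses. Standard errors divide the absolute log2 change by the root of the F statistic. Intervals are at 95% and not adjusted. CPM are relative to the TMM-scaled library. The scripts were tested on simulated data.

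DESeq2 1.42.0, limma 3.58.1 on log2(TPM + 1), other size factors, no filter, a Y-linked covariate, only the groups compared and leaving out each library were alternatives. An older form of the quasi-dispersion was added after seeing the data. Members, lists and tests were chosen with earlier results of these data known. Named are all members called in any comparison, the 3 with the lowest p where none was, the 10 highest by TPM, preset members, and up to 4 called genes per list.

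Same-numbered WT and L13a KO libraries deviated together over the 12514 genes after IFN (correlations of 0.296, 0.135 and 0.276) and IL4 (0.586, 0.323 and 0.449), but not all of them untreated (0.597, 0.0417 and 0.358). The number was therefore also fitted as a block in the genotype comparisons. The pairing comes from the numbers in the titles. The titles give no such pairing across treatments, and the cytokine comparisons were fitted unpaired. Trim11 was highest in libraries 1, 4 and 7 of both genotypes. WT library 2, however, lacked the Y-linked transcripts that WT libraries 5 and 8 held. Whether libraries of different treatments share a source was not tested.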

Additional observations from a re-analysis of the deposited data

How the results depend on the processing

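Of the members called after IFN, 9 of 13 in WT and 10 of 16 in L13a KO stayed called in each of 13 alternatives; after IL4, 0 of 2 and 0 of 3 did. Leaving out 1 library gave 10 to 12 called members for IFN in WT (10 without IFN library 4), 12 to 17 for IFN in L13a KO (12 without IFN library 4, 17 without untreated library 1), 1 to 3 for IL4 in WT (1 without IL4 library 8 or 9), 1 to 3 for IL4 in L13a KO (1 without untreated library 1 or 2) and 0 for the 5 genotype comparisons. For IL4 in WT, where 2 members were called, DESeq2 called 6, other size factors (RLE) 4 and a fit on only the groups compared 5. For IL4 in L13a KO, with 3 called, DESeq2 called 5 and the fit on only those groups 1. For IFN in L13a KO, with 16 called, that fit called 10; it has fewer libraries. The cause of the other changes was not tested. These counts from the alternative fits stand without the share of all genes called there. With limma on log2(TPM + 1), IL4 calls were 0 higher and 2 lower in WT and 0 higher and 3 lower in L13a KO. With the replicate number as a block, 0 members were called in each genotype comparison, and the block changed no call. Over all named values, 4073 stayed on their side of the threshold, 54 lost a call, 27 gained one and 0 called values changed sign. Of the 4073, 251 had the other sign than in the reported fit and were called in neither. Members near the filter, such as Trim6 and Trim66, had standard errors around 1 on the log2 scale, which limits what can be said of them. The counts of Trim6 differed widely between replicates, at 32, 2 and 0 in untreated WT. The part of depth in these errors was not tested.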
